A study of Sus scrofa with 9 samples.

Results

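The circRNAs described here come from genes of GTPase control and membrane traffic in porcine oocytes, embryos and sperm. They were chosen by the symbol of the host gene alone, as circRNAs whose host begins with TBC1D, RAB and a digit, RABGAP, RALGAP, RAPGEF, RASA, RASGRP, ARHGAP, ARHGEF, ARFGEF, ARFGAP, ASAP, DOCK, DENND, VPS, SNX, EXOC, COG and a digit, SEC and a digit, STX, TRAPPC, or an adaptor symbol of the form AP, digit and letter. The rule took 184 of 3071 circRNAs (5.99%) and 76 of 1727 host genes. The rule itself uses no measured value, though it was set with earlier results of these data known. Of the 184 members, 1 is listed as an intronic ciRNA, ciRNA-6 of RAB3GAP2, against 46 ciRNAs in the whole table.

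Total RNA of Sus scrofa was depleted of ribosomal RNA and sequenced from 3 untreated groups with 3 libraries each: metaphase II (MII) oocytes, pronuclear (PN) embryos and mature sperm. The oocytes came from slaughterhouse ovaries of postpubertal gilts, with the breed given as Long White, and were matured in vitro and freed of cumulus cells. The PN embryos were collected 18 h after the start of in vitro fertilization (IVF). Sperm RNA came from fresh semen of Large White boars of 2 to 3 years, while the embryos had been fertilized with semen of Landrace boars of the same age, so the sperm libraries and the sperm that entered the embryos differ in breed. Oocytes and embryos were pooled in large numbers for RNA isolation, and nothing states that the replicates came from separate animals or cultures, so p-values measure the spread between these libraries, which may be technical.

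GTPases of the Rab, Arf and Ras families switch between a GTP-bound and a GDP-bound form. Guanine nucleotide exchange factors (GEFs) load them with GTP, GTPase-activating proteins (GAPs) speed up hydrolysis, and tethers, coats, adaptors, sorting nexins and syntaxins then carry out the budding, sorting and fusion of vesicles that the GTPases direct. A circRNA arises when a splice donor is joined to an acceptor upstream of it, which leaves a closed loop without ends. The MII oocyte and mature sperm are close to transcriptionally silent, so their RNA is mostly stored.

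The libraries differed in depth and in which circRNAs they held. The circRNA counts summed to between 22809 and 26200 in the oocyte and embryo libraries and to 155731 and 167851 in sperm. The columns of sperm libraries 1 and 3 are identical in every row, with 562 circRNAs above 0, and entered as 1 sample, which leaves 2 sperm libraries throughout. A value of 0 allows a share of up to 0.0132% in the shallowest oocyte library, 0.0130% in the shallowest embryo library and 0.00193% in the shallower sperm library (3 counts of the library's total, counting error only). In bulk libraries, fewer cells that carry a circRNA and less of it per cell cannot be told apart.

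The members took 7.42%, 6.22% and 6.33% of all circRNA counts in the MII oocyte libraries (mean 6.65% ± 0.663, SD, n = 3). In the PN embryo libraries they took 5.34%, 9.36% and 6.93% (7.21% ± 2.02, SD, n = 3), and in sperm 3.93% and 5.44% (4.68% ± 1.07, SD, n = 2). The oocyte and embryo shares overlapped. The higher sperm share lay above the lowest embryo share and below every oocyte share. In counts this is 1796, 1492 and 1443 in oocytes, 1232, 2452 and 1697 in embryos, and 6118 and 9124 in sperm, so sperm had the most counts and the lowest mean share. Without the largest member of each library, the mean shares were 5.7% in oocytes, 6.14% in embryos and 3.49% in sperm.

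**Figure D1:**
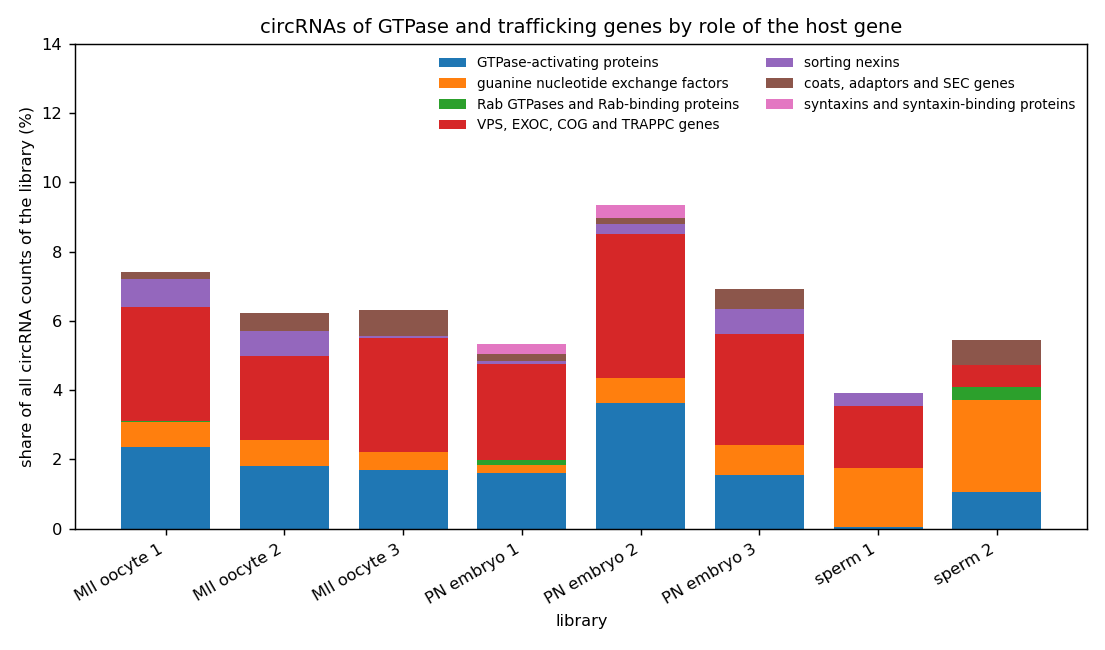
Share of all circRNA counts (%) that members take in each of 8 libraries, stacked by the role of the host gene. The exchange factors fill 1.71% and 2.66% of the counts in the sperm libraries and at most 0.890% in any oocyte or embryo library.

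The classes of host gene, set by family name, filled the libraries unequally. GAP genes (50 circRNAs of 25 hosts) held 1.95% ± 0.357 of circRNA counts in oocytes and 2.26% ± 1.19 in embryos (SD, n = 3 each), and 0.0372% and 1.06% in the sperm libraries. TBC1D32 alone held a mean of 1.27% in oocytes, 1.31% in embryos and 0% in sperm, so the oocyte and embryo values lean on that host. Exchange factor genes (38 circRNAs of 18 hosts) held 0.664% ± 0.139 in oocytes, 0.615% ± 0.343 in embryos and 2.19% ± 0.674 in sperm (SD, n = 2), and the lower sperm library, at 1.71%, lay above every oocyte and embryo library. Of this, DENND1B alone held 0.634% and 1.87% in sperm libraries 1 and 2, so the position of the class leans on that host. VPS, exocyst, COG and TRAPP genes formed the largest class, with 69 circRNAs of 14 hosts, and held 3.01% ± 0.505 in oocytes and 3.36% ± 0.702 in embryos against 1.80% and 0.640% in sperm, below every oocyte and embryo library. These class shares are descriptions without a test.

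The smaller classes differed in how many libraries held them. Sorting nexins (7 circRNAs) held 0.0745% to 0.793% in oocytes, 0.0911% to 0.718% in embryos, and 0.367% and 0% in sperm. Coat, adaptor and SEC genes (13 circRNAs) held 0.211% to 0.758% in oocytes, 0.176% to 0.571% in embryos, and 0.00835% and 0.708% in sperm. The 4 circRNAs of RAB32, RAB8B, RAB6A and the Rab11 effector RAB11FIP3 were counted 38 times or fewer in any oocyte or embryo library. In sperm library 2, RAB32, a Rab of lysosome-related organelles, had 380 counts and RAB8B, which directs traffic to the plasma membrane, 240, and both were at 0 in the other libraries. The 3 circRNAs of syntaxin and syntaxin-binding protein genes were above 0 in embryos and at 0 in oocytes and sperm. STX8, an endosomal SNARE, had 4, 99 and 2 counts in the PN embryo libraries, and STXBP6, a syntaxin-binding protein gene, had 63 in library 1.

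Most members were counted in 1 library. Of the 184, 129 (70.1%) were above 0 in exactly 1 of the 8 libraries, against 71.4% of all circRNAs, and 0 were above 0 in all 8. In oocytes 95 members of 43 hosts were above 0 in at least 1 library, in embryos 92 of 41 hosts, and in sperm 40 of 29 hosts. Above 0 in every library of the group were 9, 10 and 3 members, which is 9.47%, 10.9% and 7.5% of those detected there, against 5.01%, 5.66% and 12.5% of all circRNAs detected. The remainder included abundant circRNAs: of the 30 members with at least 50 counts in an oocyte library, 17 (56.7%) were at 0 in the other oocyte libraries, against 58.5% of all circRNAs that reach 50. In embryos this was 16 of 30 (53.3%, against 62.5%), and in sperm 28 of 31 (90.3%, against 83.2%). These shares of circRNAs in a lone library were within 10 percentage points of the whole table.

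**Figure D2:**
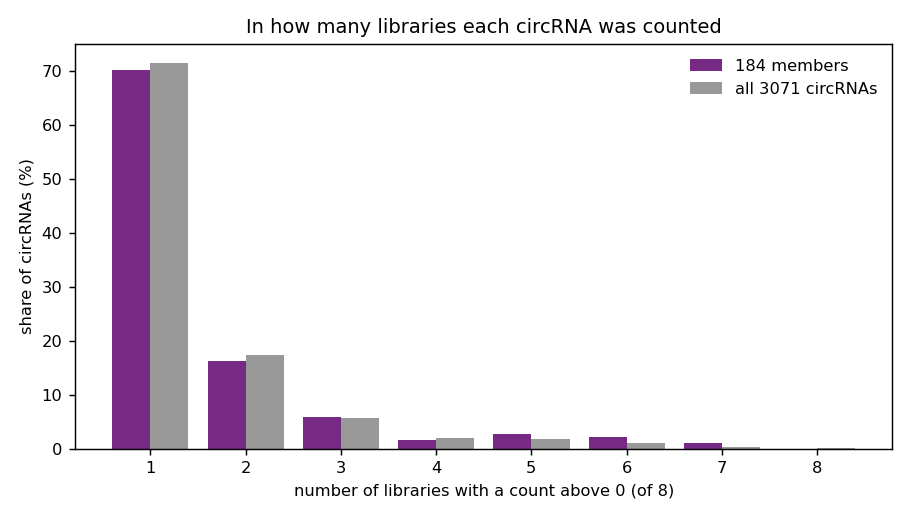
Share of circRNAs (%, vertical axis) by the number of libraries in which they were counted (horizontal axis), for the 184 members and for all 3071 circRNAs. Both fall from 70.1% and 71.4% in 1 library to a few percent in 3 libraries.

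By group, 61 members were above 0 in oocytes alone, 54 in embryos alone and 30 in sperm alone. A further 29 were above 0 in oocytes and embryos, 5 in embryos and sperm, 1 in oocytes and sperm and 4 in all 3 groups. Sperm alone held 16.3% of members and 24.8% of all circRNAs, while oocytes and embryos together held 15.8% of members and 12.8% of all. A host gene, summed over its circRNAs, is by construction detected in at least as many libraries as each of them. In oocytes 13 of 43 hosts (30.2%) were above 0 in every library, against 12.4% of all host genes. The same count was 8 of 41 (19.5%, against 12.9%) in embryos and 6 of 29 (20.7%, against 21.4%) in sperm. Member hosts also had more circRNAs to sum, 2.42 on average against 1.78, and the part of this in these shares was not tested.

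The host genes of members gave more circRNAs each, 2.42 on average against 1.78 over all hosts. Of the 76 hosts, 17 had at least 3 circRNAs and 9 had at least 5, and these 9 gave 82 of the 184 members (44.6%). The leading hosts were COG5 with 15, EXOC4 and VPS13B with 14 each, TBC1D32 with 8, and DENND1B, TBC1D31 and VPS50 with 7 each. The 75 hosts found in RefSeq's annotation of Sscrofa11.1 had a median gene length of 151467 bp, against 101613 bp for the 1514 hosts of the table found there, and the 9 leading hosts had a median of 244302 bp, against 204046 bp for the 72 such hosts of the whole table with at least 5 circRNAs. Gene length was not separated from the other properties of these genes.

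COG5 encodes a subunit of the conserved oligomeric Golgi complex, which tethers vesicles that return within the Golgi. The gene lies on chromosome 9, 106993771 to 107273889 (Sscrofa11.1). Its leading circRNA, circRNA-321, had 203, 142 and 189 counts in the MII oocyte libraries and 193, 324 and 278 in the PN embryo libraries, and it was at 0 in both sperm libraries. It was the member with the largest count in 1 of the oocyte libraries and in all 3 embryo libraries. As a share of circRNA counts it held 0.753% ± 0.140 in oocytes and 1.07% ± 0.208 in embryos (SD, n = 3 each), with an overlap between the groups.

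A second COG5 circRNA, circRNA-316, was also above 0 in every oocyte and embryo library. It had 39, 40 and 47 counts in oocytes, 21, 19 and 18 in embryos, and 92 and 0 in sperm. Every oocyte library lay above every embryo library, at a share of 0.178% ± 0.0245 against 0.0790% ± 0.0105 (SD, n = 3 each), but edgeR's quasi-likelihood test gave a log2 fold change of -1.17 ± 2.93 (SE) with a Benjamini-Hochberg adjusted p of 0.920. In sperm it was counted in library 1 alone. The other 13 circRNAs of COG5 were each at 0 in at least 1 library of every group. Among them, circRNA-320 had 95 counts in oocyte library 2 and 4 in library 1, circRNA-1903 had 136 in embryo library 2 alone, and circRNA-2874 had 884 in sperm library 2 alone. Summed over its 15 circRNAs, COG5 had 356, 279 and 290 counts in oocytes, 268, 479 and 432 in embryos, and 92 and 884 in sperm. As a share this was 1.3% ± 0.156, 1.58% ± 0.367 and 0.293% ± 0.331, and both sperm libraries lay below all others.

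TBC1D32 belongs to the TBC domain family, whose members include GAPs for Rab proteins, and is known for a role in cilia. The gene lies on chromosome 1, 41057782 to 41265416. Its circRNA-209 had 287, 203 and 44 counts in oocytes, 16, 198 and 139 in embryos and 0 in both sperm libraries. A second, circRNA-211, had 81, 0 and 86 counts in oocytes, 97, 246 and 126 in embryos and 0 in sperm, and every embryo library lay above every oocyte library. The third, circRNA-210, had 59, 3 and 74 counts in oocytes, 60, 93 and 1 in embryos and 0 in sperm.

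In oocyte library 2, where circRNA-211 was at 0 and circRNA-210 at 3, circRNA-209 had 203 counts and circRNA-756 had 67, a circRNA with 2 counts in embryo library 3 and 0 elsewhere. Summed over 8 circRNAs, TBC1D32 had 427, 273 and 207 counts in oocytes, 174, 542 and 272 in embryos and 0 in sperm. The relative spread of its share between oocyte libraries was 34.9% of the mean for the sum and 68.0% for circRNA-209 alone. For COG5 it was 12% for the sum and 18.6% for circRNA-321. In embryos it was 51.8% for the sum of TBC1D32 and 76.4% for circRNA-209, while for COG5 the sum spread more, at 23.2% against 19.4% for circRNA-321.

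EXOC4 encodes a subunit of the exocyst, which tethers secretory vesicles to the plasma membrane, and lies on chromosome 18, 15105152 to 15906734. Its circRNAs differed from library to library within a group. The leading one, circRNA-576, had 105, 0 and 48 counts in oocytes, 6, 8 and 98 in embryos and 0 in sperm. Oocyte library 2 held circRNA-1025 with 92 counts and circRNA-1023 with 72, both at 0 elsewhere, and oocyte library 3 held circRNA-1449 with 130, also at 0 elsewhere.

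Of the 12 circRNAs of EXOC4 above 0 in oocytes, 8 were in 1 oocyte library each. The sum over 14 circRNAs was nonetheless 145, 240 and 208 counts in oocytes, against 8, 31 and 134 in embryos and 0 in sperm. Every oocyte library lay above every embryo library, at 0.837% ± 0.211 against 0.233% ± 0.275 of circRNA counts (SD, n = 3 each). The fitted log2 fold change of embryos against oocytes was -1.84 ± 1.23 (SE), with an edgeR adjusted p of 0.526.

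VPS50 encodes a subunit of a complex that tethers recycling vesicles at endosomes, and lies on chromosome 9, 73074878 to 73215833. Its circRNA-304 had 146, 36 and 23 counts in oocytes, 38, 123 and 84 in embryos, and 1710 and 0 in sperm. It was above 0 in every oocyte and embryo library and was the largest member of sperm library 1, with 28% of all member counts there, while sperm library 2 held none. Embryo library 2 added circRNA-1898, circRNA-1897 and circRNA-1899, with 99, 83 and 79 counts, all at 0 in the other libraries. The summed counts of VPS50 were 146, 36 and 70 in oocytes, 38, 384 and 167 in embryos and 1710 and 0 in sperm.

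**Figure D3:**
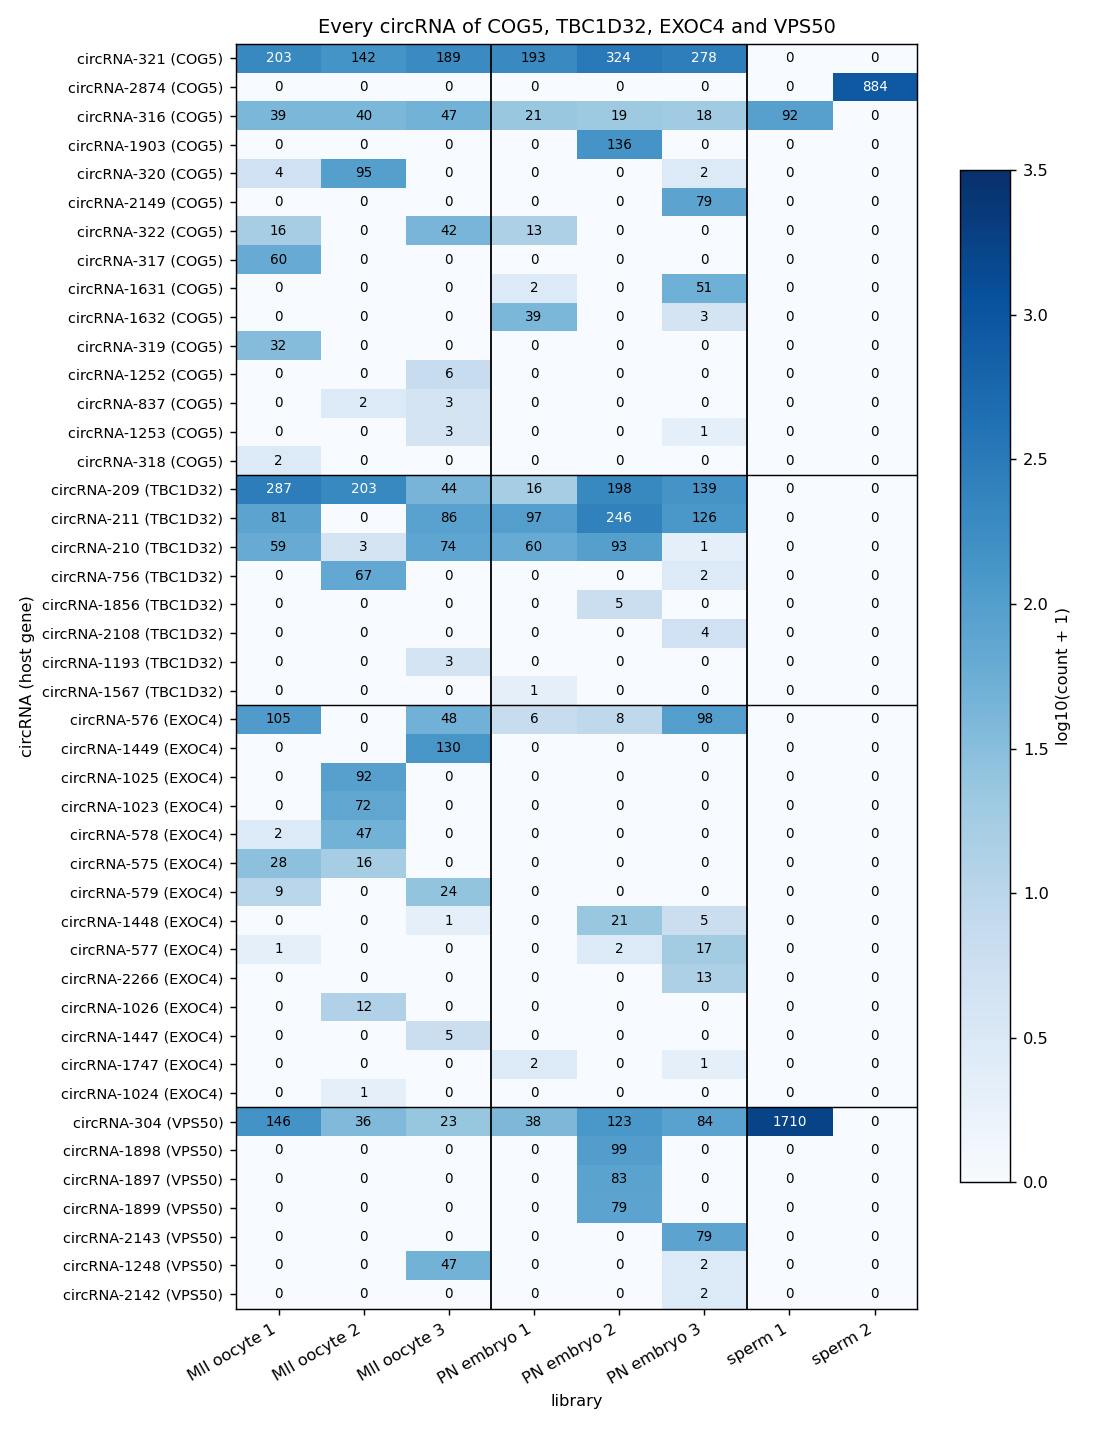
Counts of every circRNA of COG5, TBC1D32, EXOC4 and VPS50 (rows) in 8 libraries (columns), with shading by log10(count + 1) and the count printed in each cell. circRNA-321 of COG5 is above 0 in all oocyte and embryo libraries, while 23 of the 44 rows are above 0 in 1 library alone, 11 of them with at least 50 counts.

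VPS13B encodes a large lipid transfer protein of the Golgi. It gave 14 circRNAs and summed counts of 107, 10 and 143 in oocytes, 171, 141 and 51 in embryos, and 58 and 0 in sperm. All 10 of its circRNAs in oocytes were in 1 oocyte library each. In embryos circRNA-675 had 88, 1 and 39 counts and circRNA-1116 had 17, 49 and 6, and both were above 0 in every embryo library. In oocytes circRNA-675 had 0, 10 and 0 counts and circRNA-1116 had 0, 0 and 1.

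DENND1B encodes an exchange factor for RAB35, a Rab of endosomal recycling, and its circRNAs were the main exchange factor circRNAs of sperm. Its circRNA-930 had 986 and 2175 counts in sperm, 0, 85 and 1 in oocytes, and 0, 109 and 0 in embryos, and held 23.8% of member counts in sperm library 2. Both sperm libraries lay above all others in share, at 0.964% ± 0.469 (SD, n = 2) against 0.120% ± 0.203 in oocytes and 0.139% ± 0.240 in embryos. The edgeR log2 fold change was 3.01 ± 2.12 (SE) against oocytes, with an adjusted p of 0.227, and 2.80 ± 2.61 against embryos, with an adjusted p of 0.377.

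A second DENND1B circRNA, circRNA-1956, had 1 and 715 counts in sperm and 1 count in embryo library 2. In sum DENND1B had 987 and 3132 counts in sperm, 51, 85 and 34 in oocytes and 0, 112 and 8 in embryos. At the level of the gene, both sperm libraries again lay above all others. The log2 fold change of sperm against oocytes was 2.39 ± 1.08 (SE), with an edgeR adjusted p of 0.124.

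**Figure D4:**
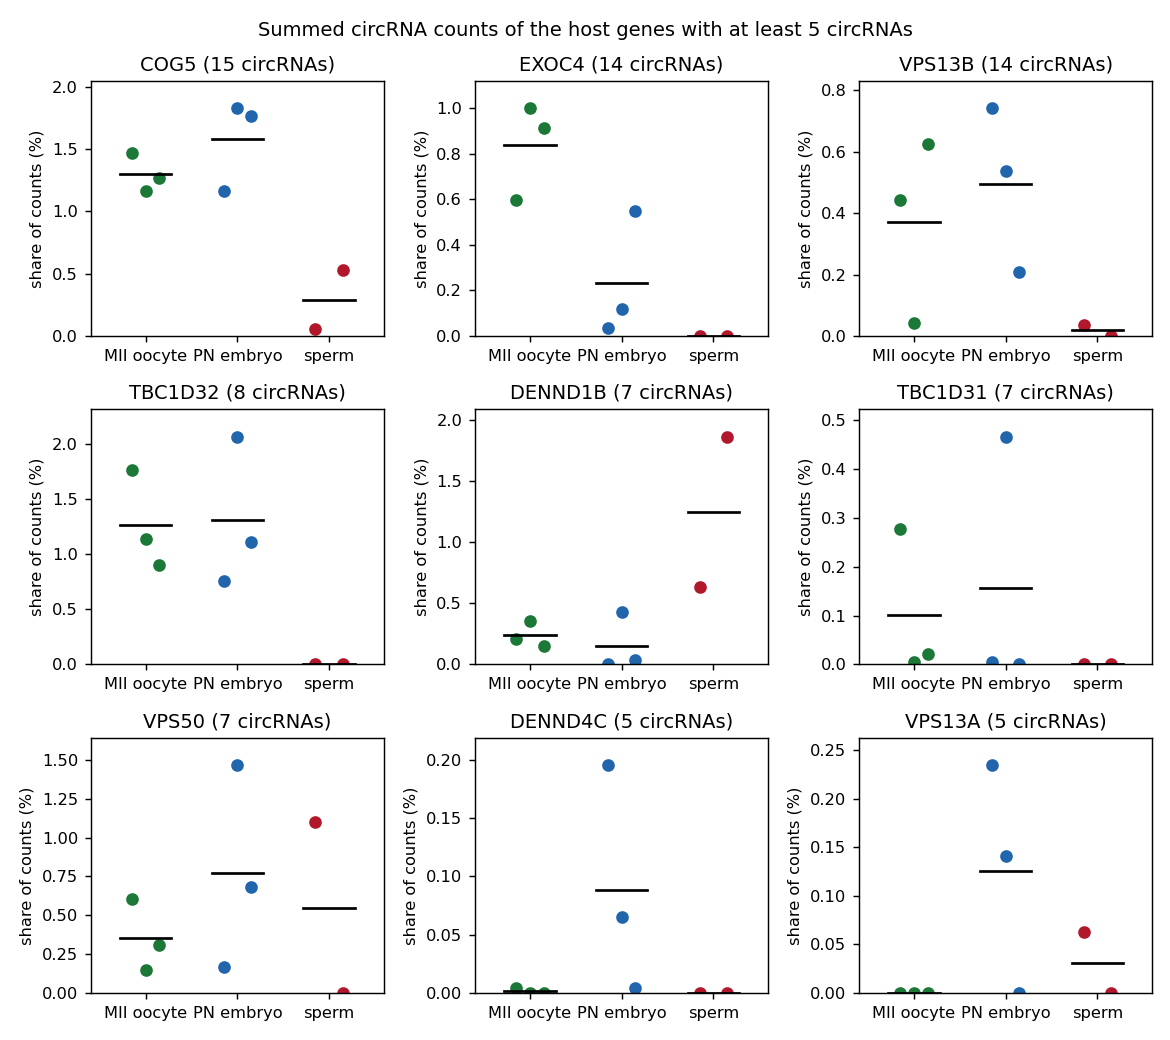
Share of circRNA counts (%) of the 9 host genes with at least 5 circRNAs, summed over their circRNAs, with 1 point per library and a bar at the group mean. COG5 and TBC1D32 are above 0 in all 6 oocyte and embryo libraries, TBC1D32 and EXOC4 are at 0 in sperm, and DENND1B is highest in sperm.

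The other hosts with at least 3 circRNAs had lower or more uneven sums. Among GAP genes, TBC1D31, a centrosomal protein, had 67, 1 and 5 counts in oocytes, 1, 122 and 0 in embryos and 0 in sperm. ARHGAP10 had 50 counts in oocyte library 1 and 4 and 93 in embryo libraries 1 and 2. Neither gene was counted in sperm.

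Among exchange factor genes, ARFGEF2, which loads Arf proteins at the trans-Golgi, had 180 and 637 counts in sperm and 2 counts in oocyte library 1. ARHGEF7, an exchange factor for RAC and CDC42, had 64 and 124 counts in sperm and 0 in the oocyte and embryo libraries, from 3 circRNAs that were each in 1 library. DENND2C had 110 and 574 counts in sperm and 25 in oocyte library 1. As a share of circRNA counts, both sperm libraries lay above all others for ARFGEF2 and ARHGEF7, while DENND2C held 0.0706% and 0.342% in sperm and 0.103% in oocyte library 1. DENND4C, a RAB10 exchange factor, had 45, 17 and 1 counts in embryos, 1 in oocyte library 1 and 0 in sperm. DOCK5, an exchange factor for RAC, had 53, 17 and 0 in oocytes, 1, 0 and 1 in embryos and 0 in sperm, so neither gene was counted in sperm.

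Among the remaining hosts, EXOC6, also of the exocyst, had 32, 0 and 40 counts in oocytes, 7 in embryo library 2 and 0 in sperm. VPS13A, a lipid transfer protein at membrane contacts, had 0 in oocytes, 54, 37 and 0 in embryos, and 97 and 0 in sperm. SNX7, a sorting nexin, had 45, 98 and 11 counts in oocytes, 81 in embryo library 2 and 0 in sperm. SEC24A, which selects cargo for the COPII coat, had 31 counts in oocyte library 3 and 902 in sperm library 2, of which 898 came from circRNA-2804, counted in that library alone.

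Members with few sister circRNAs were as uneven. SNX25, a sorting nexin, gave circRNA-490, with 3, 80 and 6 counts in oocytes, 21, 0 and 176 in embryos, and 571 and 0 in sperm. SEC22A, an endoplasmic reticulum protein of the SEC22 family, gave circRNA-395, with 37, 2 and 115 counts in oocytes, 0, 3 and 135 in embryos and 0 in sperm. ARFGEF3 gave circRNA-204, with 34, 3 and 8 counts in oocytes, 7, 0 and 94 in embryos and 0 in sperm. Each of the 3 was above 0 in every oocyte library, yet its highest and lowest oocyte counts lay more than 10-fold apart. RAPGEF1, an exchange factor for RAP1, gave circRNA-2463, with 766 counts in sperm library 1 and 0 elsewhere.

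**Figure D5:**
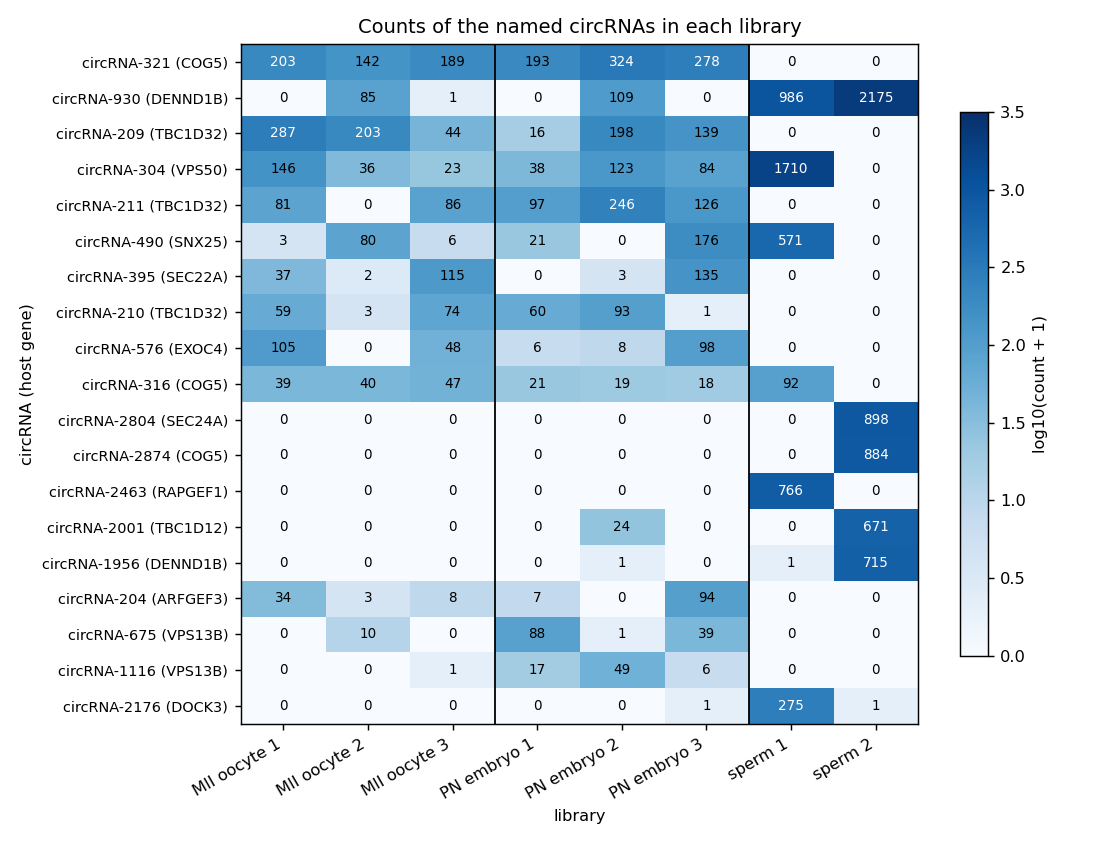
Counts of the 19 named circRNAs (rows, host gene in brackets) in 8 libraries (columns), with shading by log10(count + 1). The upper rows hold circRNAs shared by oocytes and embryos, and circRNA-930 of DENND1B is high in both sperm libraries.

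The study looked for RNAs that sperm and PN embryos share and that MII oocytes lack. Among the members, 5 were above 0 in sperm and embryos and at 0 in all 3 oocyte libraries. TBC1D12, a TBC domain protein, gave circRNA-2001, with 24 counts in embryo library 2 and 671 in sperm library 2. circRNA-1956 and circRNA-1955 of DENND1B had 1 count each in embryo library 2, against 715 and 64 in sperm library 2. circRNA-1915 of SEC24D, of the COPII coat, had 1 count in embryo library 2 and 287 in sperm library 2, and circRNA-2176 of DOCK3, an exchange factor for RAC, had 1 in embryo library 3 and 275 and 1 in sperm.

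Each of these 5 was above 0 in 1 of the 3 embryo libraries, and 4 of them with 1 count. Only circRNA-2001 exceeded the floor of 3 counts in an embryo library. The 5 members were 2.72% of members, and 3.35% of all circRNAs had this pattern. In edgeR's test of sperm against embryos all 5 were tested and none passed, nor did any with DESeq2. The smallest unadjusted p was 0.0735, and edgeR's adjusted p-values ran from 0.128 for circRNA-1956 to 0.522 for circRNA-2001. Against oocytes 2 of the 5 were tested, circRNA-1956 and circRNA-2176, both with an edgeR adjusted p of 0.105. DESeq2 and scaling to valid reads called circRNA-1956 higher in sperm. Of all 486 circRNAs tested, DESeq2 called 290 (59.7%), 77 of them higher, and scaling to valid reads 91, 80 of them higher.

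For PN embryos against MII oocytes, 49 of the 184 members were above 0 in at least 2 of the 6 libraries and were tested among 675 circRNAs. A call needed at least a doubling or halving, which is 1 on the log2 scale, with an adjusted p under 0.05. None was called, with 0 of 675 called in all (background 0%). At an unadjusted p under 0.05 there was 1 member (2.04%), circRNA-122 of SNX7, against 16 of all tested (2.37%), and DESeq2 called 0. The smallest adjusted p of a member was 0.386. The median fitted log2 fold change was -0.24 over the members tested and -0.17 over all tested, and with groups at 0 set to the floor of 3 counts per library it was -0.24 over 45 members and -0.20 over 636 circRNAs. Of the members tested, 24 had a positive and 25 a negative fitted value. At the level of host genes 33 member genes were tested among 643, with 0 called in each (background 0%), 0 of the members and 28 of all tested at an unadjusted p under 0.05, and 0 by DESeq2.

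The fitted differences between embryos and oocytes had wide errors. circRNA-321 differed by 0.51 ± 0.91 on the log2 scale (SE, edgeR adjusted p = 0.845), circRNA-209 by -0.67 ± 1.22 (adjusted p = 0.849) and circRNA-211 by 1.40 ± 1.55 (adjusted p = 0.652). For summed counts the standard error was 0.57 for COG5 and 0.62 for TBC1D32, and the fold changes were 0.28 and 0.05. For circRNA-930, counted in 3 of the 6 libraries, it was 0.21 ± 2.88. The error was also above 2 for some members counted in all 6 libraries, at 2.93 for circRNA-316 and 2.36 for circRNA-210 (0.09 ± 2.36). In simulated counts with a common spread, estimated from these libraries, the test recovered no change of 3 or 5 on the log2 scale. Differences of that size can thus have gone uncalled, while the spread of single members was not simulated.

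For sperm against MII oocytes, 28 members were tested among 486 circRNAs, of which 19 were called (background 3.91%, with 1.65% higher and 2.26% lower in sperm). Of the members 2 were called (7.14%), both lower in sperm. circRNA-321 of COG5 was at 0 in both sperm libraries and at 0.753% in oocytes, which makes it at least 391-fold lower (floor of 3 counts in the shallower sperm library, edgeR adjusted p = 0.0173). circRNA-209 of TBC1D32 was at least 385-fold lower on the same floor (edgeR adjusted p = 0.0252). At an unadjusted p under 0.05 there were 12 members (42.9%), against 34.8% of all tested.

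Of the 28 members tested, 21 were at 0 in sperm, 2 at 0 in oocytes and 5 above 0 in both groups. A circRNA absent from sperm entered the test with 2 of 3 oocyte libraries, while one absent from oocytes needed both sperm libraries, so no median over the tested members is given here or against embryos. Without MII oocyte library 1 or 2 no circRNA of the whole table was called (0 of 335 and 0 of 336 tested). Without MII oocyte library 1 the adjusted p was 0.0644 for circRNA-321 and 0.0734 for circRNA-209, and without library 2 it was 0.055 and 0.0573. The fitted log2 fold changes, which depend on the prior count since sperm is at 0, were -12.36 and -12.59 for circRNA-321 in these fits, against -12.21 with all libraries, and -11.91 and -12.32 for circRNA-209, against -12.19. Both calls were kept without either sperm library, at an adjusted p of 0.00313 and 0.00482 for circRNA-321 and 0.00342 and 0.00527 for circRNA-209, where the lone sperm library is assumed to vary like the oocyte libraries. Over all alternatives the adjusted p of circRNA-321 ran from 1.8e-09 to 0.775 and that of circRNA-209 from 3.8e-08 to 0.775.

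For sperm against PN embryos, which shares its sperm libraries with the comparison above, 29 members were tested among 453 circRNAs, of which 7 were called (background 1.55%, all lower in sperm). Of the members 1 was called (3.45%), circRNA-321, at 1.07% in embryos and at least 555-fold lower in sperm (floor of 3 counts in the shallower sperm library, edgeR adjusted p = 0.0302). circRNA-211 and circRNA-209 of TBC1D32 were at 0 in sperm as well, with adjusted p-values of 0.0648 and 0.0978. The call of circRNA-321 was lost without any of the 3 embryo libraries, as were all others of the table, at an edgeR adjusted p of 0.0959, 0.115 and 0.0904 without libraries 1, 2 and 3. Its fitted log2 fold change was -13.12, -12.84 and -12.92 without embryo libraries 1, 2 and 3, against -12.73 with all. Without sperm library 1 or 2, where the embryo libraries alone give the spread, the fitted value of circRNA-321 was -12.34 and -12.26. Over all alternatives its adjusted p ran from 1.59e-13 to 0.802. At an unadjusted p under 0.05 there were 8 members (27.6%), against 25.8% of all tested. Of the 29 members tested, 20 were at 0 in sperm, 0 at 0 in embryos and 9 above 0 in both groups.

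Summed by host gene, 26 member genes were tested among 577 for sperm against oocytes, with 17 called (background 2.95%, with 0.867% higher and 2.08% lower). TBC1D32 was at least 659-fold lower in sperm (adjusted p = 0.00771) and EXOC4 at least 434-fold lower (adjusted p = 0.0211), by edgeR and on the floor of 3 counts per library. Both genes had counts in all 3 oocyte libraries and in neither sperm library. For sperm against embryos 25 member genes were tested among 544, with 8 called (background 1.47%, with 0.368% higher and 1.1% lower), and TBC1D32 was the only member called, at least 681-fold lower (edgeR adjusted p = 0.0358). EXOC4 had an adjusted p of 0.134 there. COG5 was not called in either, with an edgeR adjusted p of 0.160 against oocytes and 0.176 against embryos. DESeq2 called COG5 against oocytes, as 1 of 276 host genes called among 577 tested (47.8%). The outcome for COG5 also changed in both comparisons without sperm library 2, where a lone sperm library is left and the other group alone gives the spread.

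The edgeR calls of TBC1D32 and EXOC4 were lost without any 1 of the oocyte or embryo libraries of the comparison. In each of these omissions of an oocyte or embryo library, 0 host genes of the whole table were called. Against oocytes, the adjusted p without MII oocyte libraries 1, 2 and 3 was 0.119, 0.141 and 0.0522 for TBC1D32 and 0.119, 0.141 and 0.088 for EXOC4. Against embryos, that of TBC1D32 without PN embryo libraries 1, 2 and 3 was 0.151, 0.157 and 0.132. Without sperm library 1 or 2, the oocyte or embryo libraries alone give the spread. The fitted log2 fold changes were then -12.57 and -12.49 for TBC1D32 and -11.97 and -11.89 for EXOC4 against oocytes, and -12.63 and -12.56 for TBC1D32 against embryos. Fitted log2 fold changes lay between -13.54 and -11.89 over all of these omissions. Over all alternatives the adjusted p of TBC1D32 ran from 2.52e-15 to 0.886 against oocytes and from 2.89e-07 to 0.891 against embryos, and that of EXOC4 from 2.58e-12 to 0.886. The sperm counts behind these calls were 0 for TBC1D32 and 0 for EXOC4, among 155731 and 167851 circRNA counts.

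Other genes of the same processes, outside the symbols above, gave 72 circRNAs of 34 hosts: further GAPs and exchange factors, small GTPases, coats and endocytosis genes, SNARE and fusion genes, and ESCRT, golgin and BEACH genes. They held 1.82% ± 0.709 of circRNA counts in oocytes, 2.31% ± 0.264 in embryos (SD, n = 3 each) and 2.39% ± 0.769 in sperm (SD, n = 2), with overlapping groups. Within this pool, the further GAPs and exchange factors held 0.818% and 0.610% in sperm and at most 0.347% in any oocyte or embryo library. The small GTPase group, set by symbol and with its largest count from RANBP9, held 0.404% to 1.16% in oocytes and 1.38% to 1.88% in embryos. In sperm it held 1.56% and 0.422%. Coat and endocytosis genes held 0.0417% to 0.434%, 0.00816% to 0.0911%, and 0.306% and 0.331% in the same order. For ESCRT, golgin and BEACH genes it was 0.0175% to 0.479%, 0.01145% to 0.360%, and 0.247% and 0.482%. The SNARE and fusion genes, whose largest count was from NSF, were at 0% in both sperm libraries and at 0.274% ± 0.101 in oocytes (SD). In the embryo libraries they were at 0.425%, 0% and 0.273%. In edgeR's tests of circRNAs 0 of 11, 0 of 13 and 0 of 15 tested were called for embryos against oocytes, sperm against oocytes and sperm against embryos, and 0, 7 and 6 had an unadjusted p under 0.05, where 2.37%, 34.8% and 25.8% of all circRNAs tested did. DESeq2 called 0, 8 and 6 of them, beside 0%, 59.7% and 55.8% of all circRNAs tested.

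Long non-coding transcripts assigned to the same genes give a second readout from these RNA samples, in which the 3 sperm libraries differ from each other. The lncRNA table assigns 381 transcripts to 61 of the 76 host genes, with coverage (mean read depth along the transcript) per library. For TBC1D32, with 2 transcripts, the summed coverage was 778, 1141 and 810 in oocytes, 1775, 1445 and 1464 in embryos, and 0.83, 0 and 0 in sperm. Sperm was thus near 0 in this readout too, as it was for most transcripts. Only 8.60% to 8.72% of all 60759 transcripts reached a coverage of 1 in the sperm libraries.

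EXOC4 differed from TBC1D32 in this respect. Its 28 transcripts had a summed coverage of 1364, 1711 and 1300 in oocytes, 1442, 1740 and 1401 in embryos, and 1377, 1618 and 1524 in sperm, so that the groups overlapped while the circRNAs of EXOC4 were at 0 in sperm. VPS13B went the other way, with 1.54 to 67.4 in oocytes, 1 to 64.9 in embryos and 1155 to 1744 in sperm, from 8 transcripts. COG5, with 2 transcripts, was at 0 in oocytes, at 1, 0 and 0 in embryos, and at 592, 0.26 and 1216 in sperm. Over all 381 transcripts, 37.0% to 40.2% reached a coverage of 1 in the oocyte libraries, 32.0% to 34.6% in the embryo libraries and 11.3% to 15.0% in sperm, against 37.9% to 40.0%, 32.9% to 36.5% and 8.60% to 8.72% of all 60759 transcripts. The summed coverage went the other way, at 9316 to 11150 in oocytes, 9184 to 9713 in embryos and 16226 to 27878 in sperm, and over all transcripts at 1423560 to 1480714, 1345257 to 1412962 and 2317207 to 2418233. These coverages are descriptions without a test, and the depth behind each is unknown.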

How the data were processed

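Whole-transcriptome libraries of MII oocytes, PN embryos and sperm (3 each) were grouped by their titles. The authors deposited whole-number counts per circRNA with the host gene, without normalization, and for lncRNAs coverage, a signal per transcript. The submitters' processing notes name cutadapt 1.9, TopHat2 2.0.4, HISAT2 2.0.4, StringTie 1.3.4d, edgeR and the build Sscrofa11.1. The circRNA caller is not given in the sources used here. The mRNA table was not used, so the tissue labels were not checked against marker genes. Of the per-library columns 0 were left unmapped, and sperm columns 1 and 3 were identical and counted as 1 sample.

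Members were matched by host symbol. The members and lists were chosen with earlier results of these data known. A library share is a count divided by the circRNA total of its library. Counts, of circRNAs and summed by host gene, were compared by quasi-likelihood tests in edgeR 4.0.16 (R 4.3.3), scaled to the circRNA total, over features counted in 2 or more of the libraries compared, with 2 groups a fit, no block and Benjamini-Hochberg adjustment over all features tested. The study's thresholds were used for a call: 1 on the absolute log2 scale and 0.05 for the adjusted p. On simulated counts with changes of 3 or 5 (log2), the tests recovered most at a low common spread between libraries. They recovered none at the common spread estimated from these libraries, in all 3 comparisons, so a feature not called may still differ. Reads carry no molecular identifiers, so floors of 3 counts cover counting error only.

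Named circRNAs were those called, the 5 with the highest mean share per group, those above 0 in every library of a group (the first 15 by mean share), those above 0 in all 3 groups, and circRNA-2001, which the study lists. Host genes with at least 3 circRNAs were named by their sums. Further names were chosen after their values were seen. Alternatives were DESeq2 1.42.0, TMM and valid-read scaling, other filters, all groups in 1 fit, a replicate block, the identical sperm columns as 2 samples, and each library left out in turn. Tables were made with pandas 2.3.3.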

Additional observations from a re-analysis of the deposited data

How the results depend on the processing

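The called members (circRNA-321, circRNA-209, TBC1D32 and EXOC4) were at 0 in both sperm libraries, so their direction, lower in sperm, could not turn under any alternative and says nothing of stability. Numbers of members called depended on the method. For circRNAs of sperm against oocytes (2 of 28 called), DESeq2 called 19 of 28, beside 290 of all 486 tested (59.7%). The filter of at least 3 libraries above 0 gave 6 of 10, beside 70 of 123, and the replicate block 0, beside 0 of 486. For sperm against embryos (1 of 29 called), DESeq2 called 18 of 29, beside 253 of all 453 tested (55.8%). TMM scaling gave 3, beside 17 of 453, and scaling to valid reads and the replicate block 0 each, beside 0 of 453. The filter of at least 3 libraries gave 4 of 14, beside 44 of 143. All groups in 1 fit gave 3 of 55, beside 21 of 877, and the identical sperm columns as 2 samples 2 of 44, beside 17 of 824. For host genes of sperm against oocytes (2 of 26 called), DESeq2 called 16 of 26, beside 276 of all 577 tested (47.8%). Valid reads and the replicate block gave 0 each, beside 0 of 577. Host genes of sperm against embryos (1 of 25 called) gave 2 of 25 with valid reads, beside 39 of all 544 tested, 35 of them higher in sperm. The 2 were ARFGEF2 and DENND2C, both higher in sperm, while TBC1D32 lost its call at an edgeR adjusted p of 0.0566. DESeq2 called 12 of 25, beside 182 of 544 (33.5%), and the filter of at least 3 libraries 3 of 13, beside 42 of 222. All groups in 1 fit gave 2 of 40, beside 27 of 864, and the replicate block 0, beside 1 of 544. With each library left out in turn, members called ran from 0 to 3 for circRNAs and host genes against oocytes and from 0 to 2 for both against embryos. All features called ran from 0 to 21 and 0 to 26 against oocytes and from 0 to 19 and 0 to 17 against embryos, and where 0 members were called, 0 of all features were. The cause was not tested. Embryos against oocytes gave 0 members called in all alternatives.

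Over all circRNAs, calls of sperm against oocytes (19) were 10 with TMM, 91 with valid reads, 290 with DESeq2, 70 with the stricter filter and 0 with the block. Against embryos (7) they were 17, 0, 253, 44 and 0, with 13 without a filter, 21 with all groups and 17 with the identical columns. Over host genes, calls against oocytes (17) were 46, 0, 276, 44 and 0, with 28 in 1 fit of all groups, and against embryos (8) valid reads gave 39, DESeq2 182, no filter 15, the stricter filter 42, all groups 27 and the block 1. The split of higher and lower circRNAs against oocytes was 8 and 11, then 0 and 10 with TMM and 80 and 11 with valid reads. Against embryos it was 0 and 7, then 6 and 11 with TMM. For host genes it was 5 and 12 against oocytes, then 19 and 27 with TMM, and 2 and 6 against embryos, then 35 and 4 with valid reads. Scaling to valid reads moved the median circRNA of sperm against oocytes by 1.74 and of host genes against embryos by 2.33 (log2), and TMM by -2.18 and -0.21.

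The replicate numbers did not consistently pair the oocyte and embryo libraries. Same-numbered libraries correlated at -0.00401, 0.109 and 0.183 across 675 circRNAs. The deviations of libraries 2 and 3 correlated best with their own number, and those of library 1 did not. Pairing with the sperm libraries was not examined. Under the block all called members lost the call, while their fitted log2 fold changes moved from -12.21 to -12.12 for circRNA-321, -12.19 to -12.63 for circRNA-209, -12.97 to -13.13 for TBC1D32 and -12.37 to -12.27 for EXOC4 against oocytes, and from -12.73 to -12.67 for circRNA-321 and -13.03 to -13.0 for TBC1D32 against embryos.

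The mean member share was 7.84% in oocytes without the largest circRNA of each library and 5.7% without the largest member, and 3.49% in sperm without the largest member. Leaving out a library gave 6.27% to 6.87% in oocytes, 6.13% to 8.14% in embryos and 3.93% to 5.44% in sperm. Members above 0 in at least 2 libraries of the group were 25 in oocytes, 23 in embryos and 3 in sperm. Sperm rests on 2 libraries, and oocyte and embryo floors lie above sperm's, so a member near the sperm floor was not detectable there.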
